A study of Mus musculus with 29 samples.

Results

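C-type lectin receptors are membrane proteins whose lectin-like domain binds sugars, lipids, proteins or parts of dead cells. The mouse genes named Clec followed by a number were taken from the count table by symbol, and 33 protein-coding genes were found among 54532 genes. By the cells known to use them they fall into 17 myeloid members, 2 epithelial members, 6 other members of the Clec2 subfamily, 5 endothelial or stromal members and 3 others. 25 of the 33 had a mean count of at least 3 over the mice and were tested, of which 13 were myeloid and 2 epithelial. The remaining 8 (Clec4a4, Clec4b2, Clec4f, Clec12b, Clec2f, Clec4g, Clec18a and Clec3a) were below this level and are described by their counts.

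Many myeloid members are sensors of microbes and injured tissue. Mincle (Clec4e), MCL (Clec4d), Dectin-2 (Clec4n) and Dectin-1 (Clec7a) lead to the kinase Syk and the adaptor Card9, the first 3 of them through the Fc receptor gamma chain (Fcer1g), whereas Clec5a pairs with Dap12 (Tyrobp). DCIR (Clec4a2) and Clec12a carry inhibitory motifs. The Clec2 proteins belong to a different branch, and several of them are ligands of the NKR-P1 receptors of natural killer cells and other lymphocytes. In the gut, Clec2e and Clec2h are known as epithelial genes.

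Colon RNA of 29 mice was sequenced after poly(A) selection, with 1 library per mouse and 9 groups, to compare colitis models. TRUC mice (n = 4, Balb/C, Tbx21-/- and Rag2-/-, untreated) develop colitis that depends on their microbiota, and untreated Balb/C Rag2-/- mice (Rag2 control, n = 3) were their controls. Untreated Balb/C mice (WT control, n = 3) served DSS (n = 3, Balb/C, 3% in the water for 5 days, culled at day 10), DNBS (n = 3, Balb/C, 3 mg by the rectum in 50% ethanol) and IL-10 blockade (n = 4, Balb/C, blocking antibody, 750 µg, culled after 4 weeks). Untreated C57BL/6 Rag1-/- mice (Rag1 control, n = 3) served TCT (n = 3, C57BL/6 Rag1-/- mice given naive CD4+ T cells, culled after 6 to 8 weeks) and anti-CD40 (n = 3, C57BL/6 Rag1-/- mice, 50 µg of agonist antibody, culled after 7 days). By genotype, TRUC, anti-CD40 and the Rag controls lack T and B cells of their own, and the TCT mice have only the transferred T cells. These descriptions follow the labels. The study's methods give C57BL/6 for the WT and DSS mice and Il10-/- mice for the IL-10 model and other cull times for DSS and TCT, the dosed antibody is described as one against the IL-10 receptor, and the treatment label names Rag2-/- recipients for TCT. No label is given as an age. The identifiers of TRUC mice 4 and 5 differ in form from those of mice 2 and 3, and what they stand for is not stated. Nothing states that mice of a group came from separate litters or cages, so that p-values measure the spread between these mice.

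Total counts ran from 10725564 to 14977094 per mouse. Levels are given as CPM, the count scaled by the size of the library. Epithelial markers summed to 5923 to 7839.5 CPM in the DSS mice and to 7879 to 9622 CPM in the WT controls, and smooth muscle markers to 3466 to 9544 and 5032 to 6393 CPM, so that markers of both colon layers were present. Of 4 smooth muscle markers, 3 were called lower in IL-10 blockade, where they summed to 2045 to 3985 CPM, and 1 in TRUC, at 2279.6 to 3402 CPM against 4526 to 5143 in the Rag2 controls. The transcripts of the targeted genes went against some labels. Rag2 reached 1.13 to 2.21 CPM in the Rag2 controls and 0.442 to 1.72 CPM in the Rag1 controls, but 0 to 0.0762 CPM in the WT controls and 0 in every library labelled TCT. It was at 5.13 to 6.93 CPM in TRUC and 3.44 to 8.49 in anti-CD40. Rag1 was at 1.85 to 2.88 CPM in the libraries labelled TCT and at 0 to 0.295 CPM in the Rag1 controls. Tbx21 was at 2.12 to 4.63 CPM in TRUC. What these values mean for the mouse lines was not tested, and for TCT a difference in line from its controls cannot be told apart from the transfer. TCT was therefore also set against the WT controls and anti-CD40 against the Rag2 controls, and these values are printed for members called with either control where the call or its sign changed or the fold moved by over 1.5 times.

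25 of the 33 members lie on chromosome 6, and Clec4d and Clec4e are neighbours with their 3′ ends facing each other, 6523 bases apart (chr6:123262111-123275265 and chr6:123281789-123289870 in GRCm38). The promoters of 4 members, picked by their changes in these data, are shown, and their part in these changes was not tested. The neighbouring genes Clec4e and Clec4d had the largest rises in DSS, TRUC, TCT and IL-10 blockade. Of the other pair, Clec2e and Clec2h, Clec2e alone fell. Each stretch holds 250 bases before and 50 bases after a start site, from RefSeq for GRCm38.p6, which gives a promoter for 26 of the 33 members. In the first pair, capitals mark GAGGAA on either strand, the core letters bound by the myeloid factor PU.1. Clec4e lies on the minus strand at chr6:123289822-123290121 and Clec4d on the plus strand at chr6:123261857-123262156.
Clec4e: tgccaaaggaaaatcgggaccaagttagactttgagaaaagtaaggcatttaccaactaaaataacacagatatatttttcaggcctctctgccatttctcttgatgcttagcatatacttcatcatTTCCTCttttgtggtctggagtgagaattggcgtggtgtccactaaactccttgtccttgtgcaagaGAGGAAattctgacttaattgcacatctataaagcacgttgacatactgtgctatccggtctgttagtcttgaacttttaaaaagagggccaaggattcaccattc
Clec4d: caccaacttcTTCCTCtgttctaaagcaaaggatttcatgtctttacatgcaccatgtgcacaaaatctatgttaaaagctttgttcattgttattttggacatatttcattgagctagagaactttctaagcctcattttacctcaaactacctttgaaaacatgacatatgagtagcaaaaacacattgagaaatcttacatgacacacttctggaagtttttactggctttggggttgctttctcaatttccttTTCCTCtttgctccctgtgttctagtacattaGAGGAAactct

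GAGGAA was found 2 times in the Clec4e stretch and 3 times in the Clec4d stretch. It is a common word, present in 28.3% of all 32851 promoters of this length and in 16 of the 29 promoters of members. AP-1 letters (TGANTCA) were found in 6 of 29 member promoters and in 7.81% of all, C/EBP letters (TTNNGNAAT) in 3 and in 11.5%, NF-kB letters (GGGANTTTC) in 2 and in 1.11%, and CDX letters (TTTATNG) in 8 and in 10.9%. Both strands were searched. The C/EBP letters can hold GAGGAA within them, and no other of these motifs can hold another. Matches describe the sequence and are not binding sites.

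For the epithelial pair, capitals mark unbroken runs of at least 12 bases that both genes share. Clec2e lies on the minus strand at chr6:129100854-129101153 and Clec2h on the plus strand at chr6:128662135-128662434.
Clec2e: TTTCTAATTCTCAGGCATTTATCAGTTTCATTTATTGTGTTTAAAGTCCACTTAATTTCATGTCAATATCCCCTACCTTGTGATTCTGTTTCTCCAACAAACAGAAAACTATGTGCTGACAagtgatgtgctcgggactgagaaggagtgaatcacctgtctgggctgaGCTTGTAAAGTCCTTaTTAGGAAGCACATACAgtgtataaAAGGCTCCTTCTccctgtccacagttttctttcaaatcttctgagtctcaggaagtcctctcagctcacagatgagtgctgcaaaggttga
Clec2h: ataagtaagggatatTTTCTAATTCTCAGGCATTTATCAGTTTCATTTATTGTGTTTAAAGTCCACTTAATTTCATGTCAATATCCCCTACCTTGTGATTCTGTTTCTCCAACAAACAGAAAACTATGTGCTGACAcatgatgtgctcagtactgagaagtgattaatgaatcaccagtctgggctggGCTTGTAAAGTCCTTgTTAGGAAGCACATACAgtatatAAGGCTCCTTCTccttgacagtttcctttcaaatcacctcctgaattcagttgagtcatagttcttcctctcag

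Over 274 aligned bases, 254 (92.7%) were identical between Clec2e and Clec2h, and the longest shared run had 121 bases. The alignment also held 17 gap bases, which this percentage leaves out. Each of the 2 stretches held 1 match to the CDX letters, inside that run. Transcripts of the pair can be told apart by their exons, since none of the 50-base windows of Clec2e was found in another gene and 2.15% of those of Clec2h were.

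In untreated colon, the most abundant members were epithelial, stromal and other Clec2 genes, and the myeloid members were lower. Levels between genes are compared as CPM per kilobase of exon. In the WT controls Clec2h was highest at 67.5 ± 3.20 (mean ± SD, n = 3), followed by Clec2d at 50.4 ± 5.24 and Clec3b, which encodes the secreted protein tetranectin, at 50.2 ± 11.8. The spreads of Clec2d and Clec3b overlapped. Clec14a, an endothelial gene, followed at 6.20 ± 0.346, Clec2e at 4.51 ± 0.352 and Clec16a, an autophagy gene, at 4.04 ± 0.276. The highest myeloid member was Clec4n at 3.32 ± 0.536, and Clec4a3, Clec4a1 and Clec7a followed between 2.73 ± 0.303 and 2.04 ± 0.199. Clec4e was near the foot of the order, with 2 counts in all 3 WT controls together.

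**Figure D1:**
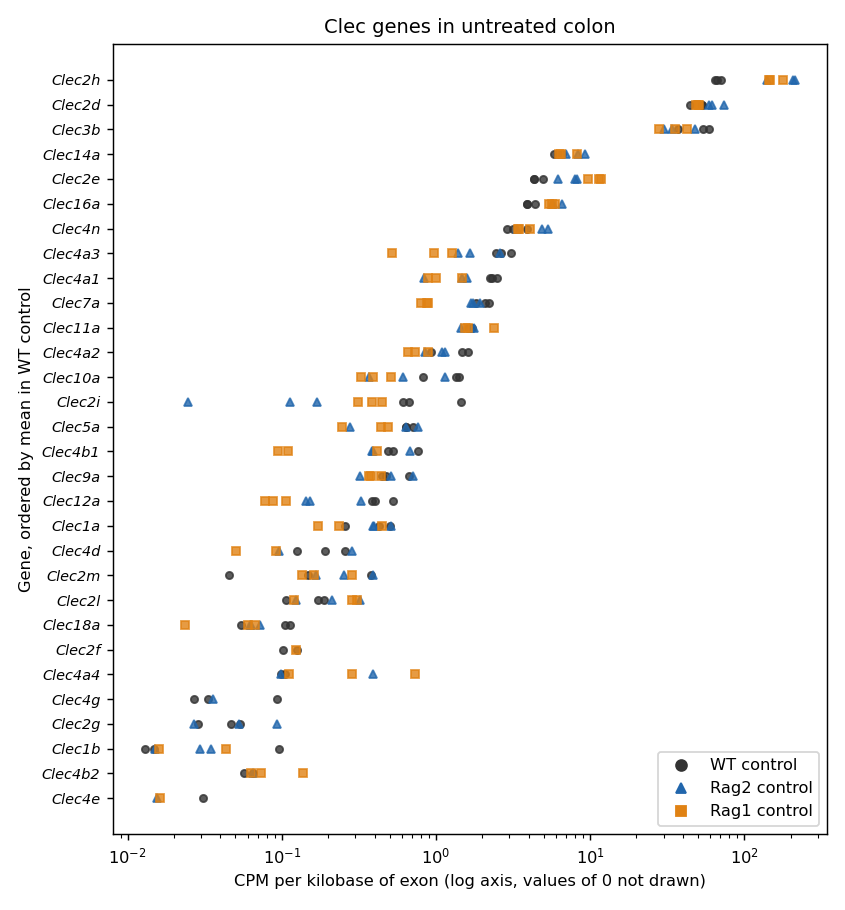
Level of each member in the untreated mice, in CPM per kilobase of exon on a log axis, for members with a count in the WT controls. Points are mice of the WT, Rag2 and Rag1 controls, and mice without a count of the gene are not drawn. Clec2h, Clec2d and Clec3b lie above the rest in all 3 groups. Clec4e is the lowest in the WT controls by its mean, which takes in the mice not drawn.

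Between the control groups, 3 of 25 members differed. Against the WT controls, Clec2h and Clec16a were higher in the Rag2 controls (2 of 25 tested, against 3.25% of all genes) and Clec2i was lower (1 of 25, against 4.86%). Clec2i, a ligand of NKR-P1 receptors, had 4, 1 and 7 counts in the Rag2 controls and 25, 31 and 55 in the WT controls (log2 fold change -3.10 ± 0.59 (SE), adjusted p = 0.000891, edgeR quasi-likelihood test with Benjamini-Hochberg adjustment, as throughout). Clec2h differed by 1.46 ± 0.33 (adjusted p = 0.00448) and Clec16a by 0.57 ± 0.10 (adjusted p = 0.000441). The total of 3 became 6 by DESeq2 and by edgeR on these 2 groups alone. Between the Rag1 and the Rag2 controls edgeR called none of the 25, with 4 at an unadjusted p under 0.05, and over all genes only 0.0698% were higher and 0.0537% lower. DESeq2 on these 2 groups called 2 members and edgeR on them alone 1. Shares of all genes were not counted for these other methods.

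In colitis, most members called higher were myeloid, and those called lower were epithelial, stromal or other members. Members called higher numbered 12 of 25 in TRUC (22.4% of all genes tested were called higher), 11 in DSS (17.7%), 4 in DNBS (3.95%), 14 in IL-10 blockade (27.2%), 15 in TCT (16.1%) and 11 in anti-CD40 (10.9%). Among the 13 myeloid members tested, 10 rose in TRUC, 10 in DSS, 11 in IL-10 blockade, 4 in DNBS, 12 in TCT and 8 in anti-CD40, with no member falling. Members called lower were fewer, with 3 in TRUC (23.4% of all genes), 1 in DSS (16.3%), 0 in DNBS (2.21%), 1 in IL-10 blockade (26.1%), 3 in TCT (14% of all genes) and 2 in anti-CD40 (10.7%). For the 0 in DNBS, Clec3b was lower at an unadjusted p under 0.05 in edgeR, DESeq2 called 0 lower, and without DNBS mouse 11 edgeR called 1.

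The median log2 fold change of the tested myeloid members was 2.69 in DSS, 1.91 in TRUC, 1.79 in IL-10 blockade, 1.14 in DNBS, 3.30 in TCT and 1.37 in anti-CD40, whereas the median of all genes tested lay between -0.03 and 0.02. The count in DNBS was the one that the method moved most: edgeR on the 2 groups alone called 9 members higher there and DESeq2 called 10. Against the Rag2 controls, 7 members were higher and 4 lower in anti-CD40, and against the WT controls 13 were higher and 2 lower in TCT. Shares of all genes called were not counted for these contrasts or for the other methods in DNBS. In bulk tissue, more cells of a type and more RNA per cell cannot be told apart.

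**Figure D2:**
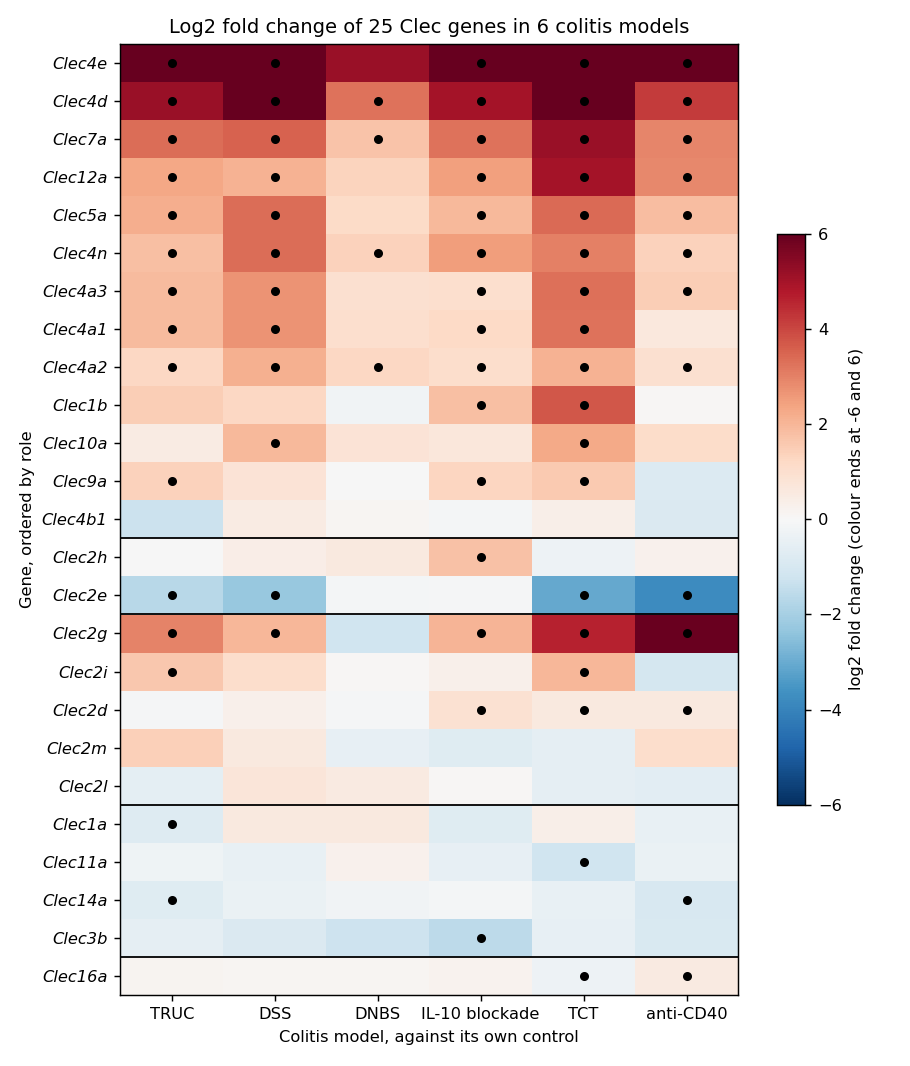
Log2 fold change of the 25 tested members (rows, grouped by role) in each colitis model against its own control, in colour, with a dot where the adjusted p is under 0.05. The upper block of 13 myeloid members is red in most models, Clec2e is blue with a dot in 4 models, and the stromal block is pale or blue.

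Markers of myeloid cells were called higher as well. The myeloid members summed to 104 to 158 CPM in TRUC and 224 to 358 in TCT. Between these models the neutrophil markers were higher in TRUC, and the macrophage and monocyte markers were higher in TCT. Counts of called markers here and elsewhere are to be read beside the shares of all genes called in each model. Of 6 neutrophil markers, 6 were called higher in TRUC and in DSS and 5 in each of the other models. Their median log2 fold change was 9.12 in DSS, 8.11 in TRUC and 6.74 in TCT. It was 6.70 in IL-10 blockade, 5.32 in DNBS and 4.99 in anti-CD40. A sum is led by its most abundant markers, and the sums moved less than these medians. The sum of the neutrophil markers was 131 to 145 CPM in the WT controls, 173 to 296 in DNBS, 501 to 2446 in DSS and 240.3 to 926 in IL-10 blockade. In the Rag2 controls it was 211 to 338 against 1536 to 2099 CPM in TRUC, and in the Rag1 controls 152 to 293 against 332 to 588 in TCT and 557 to 886 in anti-CD40. Cxcr2, a chemokine receptor of neutrophils, had no count in any control mouse. Of 9 macrophage and monocyte markers, 9 rose in TRUC, DSS and TCT, 6 in IL-10 blockade, 5 in anti-CD40 and 2 in DNBS. Their sum was 551 to 652 CPM in the WT controls, 862 to 946 in DNBS, 1492 to 2986 in DSS and 1283 to 1901 in IL-10 blockade. It was 361 to 533 in the Rag2 controls and 903 to 1105 in TRUC, and 373 to 438 in the Rag1 controls, 1705 to 2909 in TCT and 694 to 989 in anti-CD40. The part of cell numbers in the values that follow was not tested.

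Values per mouse are given below in CPM in the order of the mouse numbers, which are 1, 2 and 4 for the WT and the Rag2 controls, 2, 3 and 4 for the Rag1 controls, 2 to 5 for TRUC, 5, 6 and 8 for DSS, 11, 14 and 16 for DNBS, 1 to 4 for IL-10 blockade, 1, 3 and 5 for TCT and 6, 7 and 8 for anti-CD40. The DSS group was uneven, since mouse 8 was above mice 5 and 6 for every myeloid member described in full. Folds are ratios of group means, and log2 fold changes are from the fit with their standard errors.

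Clec4e, the receptor Mincle for cord factor of mycobacteria and for a protein of dying cells, had the largest rises. Clec4e stood at 0.152, 0 and 0 CPM in the WT controls, 8.12, 25.2 and 312 in DSS, 0.955, 4.19 and 1.36 in DNBS and 13.2, 8.52, 10.6 and 18.8 in IL-10 blockade. For Clec4e, the Rag2 controls had 0, 0.0765 and 0 CPM and TRUC 6.78, 11.1, 13.6 and 4.48, and the Rag1 controls had 0.0811, 0 and 0, TCT 70.2, 25.3 and 28.1 and anti-CD40 12.2, 10.5 and 3.52. Every colitis mouse was above every control mouse. The controls held 1 or 2 counts in each group of 3 mice, so the ratio of summed counts is given with its interval. It was 2065 (95% counting interval 571 to 17054) in DSS and 41.9 (95% counting interval 11.3 to 352) in DNBS. In IL-10 blockade it was 255.9 (95% counting interval 70.5 to 2119) and in TRUC 329 (95% counting interval 58.7 to 13028). In TCT it was 1551 (95% counting interval 278 to 61316) and in anti-CD40 313 (95% counting interval 55.7 to 12392). These intervals cover counting error only. The test called Clec4e in 5 models, with adjusted p from 1.05e-05 in DSS to 0.00265 in anti-CD40, and not in DNBS (adjusted p = 0.0923), where all 3 mice were above the WT controls. Without DSS mouse 8 the fitted log2 fold change in DSS fell from 10.91 to 8.13 and the call stayed, and without TCT mouse 1 it was 9.51 in TCT. Leaving out the control mouse that held the counts raised it to 13.49 in DSS, 10.31 in IL-10 blockade, 9.80 in TRUC, 11.9996 in TCT and 9.75 in anti-CD40, and without WT control mouse 2 it was 7.15 in IL-10 blockade. Against the WT controls the fitted value in TCT was 9.43 ± 1.47 (adjusted p = 6.83e-05). Fitted values of a gene with so few control counts depend on the default prior count of the fit.

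Clec4d, the neighbour of Clec4e and its partner receptor MCL, rose in all 6 models. Clec4d stood at 0.305, 0.200 and 0.410 CPM in the WT controls, 7.43, 18.4 and 96.0 in DSS, 1.91, 4.73 and 2.39 in DNBS and 9.95, 8.52, 7.64 and 13.0 in IL-10 blockade. For Clec4d, the Rag2 controls had 0, 0.153 and 0.453 CPM and TRUC 6.56, 11.7, 10.1 and 4.07. For Clec4d, the Rag1 controls had 0.0811, 0.147 and 0 CPM, TCT 33.0, 18.7 and 18.3 and anti-CD40 1.78, 2.57 and 0.646. Again no colitis mouse fell within the range of its controls. Means were 133-fold higher in DSS (log2 fold change 7.03 ± 0.87, adjusted p = 4.74e-06), 32.0-fold in IL-10 blockade (4.98 ± 0.84, 4.58e-05), 40.2-fold in TRUC (5.19 ± 0.90, 8.63e-05) and 9.87-fold in DNBS (3.28 ± 0.90, 0.0337). With 3 counts in the Rag1 controls, the ratio was 293 (95% counting interval 99.9 to 1424) in TCT and 20.02 (95% counting interval 6.52 to 99.9) in anti-CD40 (adjusted p = 2.23e-06 and 0.0181). The call in DNBS was lost without WT control mouse 1, 2 or 4 or DNBS mouse 14 or 16 (log2 fold change 2.80 to 3.53 over the fits that leave out 1 mouse, adjusted p up to 0.141), and that in anti-CD40 without Rag1 control mouse 4 or anti-CD40 mouse 7 (3.71 to 4.99, adjusted p up to 0.0922). Without DSS mouse 8 the value in DSS was 5.38, without Rag2 control mouse 4 that in TRUC was 6.46, and without Rag1 control mouse 3 those in TCT and anti-CD40 were 8.82 and 4.99. With the other controls Clec4d was still called, at lower values of 6.24 ± 0.86 for TCT against the WT controls (adjusted p = 1.88e-05) and 2.90 ± 1.04 for anti-CD40 against the Rag2 controls (adjusted p = 0.0445).

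Clec4n and Clec7a, the receptors Dectin-2 and Dectin-1 for fungal mannans and beta-glucans, were already present in untreated colon and rose in all 6 models. Clec4n stood at 5.56, 4.46 and 4.10 CPM in the WT controls, 28.4, 32.0 and 86.0 in DSS, 15.2, 10.6 and 11.2 in DNBS and 25.9, 25.9, 27.4 and 28.2 in IL-10 blockade. For Clec4n, the Rag2 controls had 4.78, 6.89 and 7.55 CPM and TRUC 19.6, 23.7, 27.5 and 19.4. For Clec4n, the Rag1 controls had 4.86, 5.75 and 4.91 CPM, TCT 52.7, 39.7 and 33.2 and anti-CD40 16.1, 16.1 and 8.11. The groups did not overlap, and the 4 mice of IL-10 blockade were the closest to each other. Its rise was 3.37 ± 0.34 on the log2 scale in DSS, 3.01 ± 0.34 in TCT and 2.51 ± 0.32 in IL-10 blockade (adjusted p = 5.44e-07, 3.20e-07 and 2.27e-06). It was 1.81 ± 0.31 in TRUC, 1.39 ± 0.33 in DNBS and 1.37 ± 0.33 in anti-CD40 (adjusted p = 8.23e-05, 0.0162 and 0.00522). Without DSS mouse 8 it was 2.68 in DSS. The call in DNBS was lost without any 1 of the WT control mice 1, 2 and 4 (1.21 to 1.54, adjusted p up to 0.0726).

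Clec7a stood at 5.49, 4.80 and 5.82 CPM in the WT controls, 26.9, 25.2 and 135 in DSS, 17.2, 12.4 and 22.8 in DNBS and 63.7, 44.2, 50.2 and 44.1 in IL-10 blockade. For Clec7a, the Rag2 controls had 4.60, 5.13 and 4.46 CPM and TRUC 47.0, 59.6, 49.8 and 35.7. For Clec7a, the Rag1 controls had 2.11, 2.36 and 2.32 CPM, TCT 105, 74.2 and 67.3 and anti-CD40 19.4, 24.6 and 7.89. Control mice were close to each other, and every colitis mouse was above them. Its mean was 36.4-fold higher in TCT (log2 fold change 5.18 ± 0.54, adjusted p = 1.20e-07), and 10.2-fold in TRUC (3.34 ± 0.48, 1.13e-05). In IL-10 blockade it was 9.41-fold higher (3.24 ± 0.47, 8.60e-06) and in DSS 11.6-fold (3.54 ± 0.49, 1.51e-05), or 2.28 on the log2 scale without DSS mouse 8. The rises in anti-CD40 (2.92 ± 0.52, 0.000482) and DNBS (1.70 ± 0.47, 0.0343) were smaller, and the call in DNBS was lost without WT control mouse 1, 2 or 4 or DNBS mouse 14 or 16 (1.47 to 1.90, adjusted p up to 0.142). With the other controls Clec7a was still called, at 3.94 ± 0.49 for TCT against the WT controls (adjusted p = 6.50e-06) and 1.86 ± 0.48 for anti-CD40 against the Rag2 controls (adjusted p = 0.00740). Clec7a is listed as a polymorphic pseudogene in GENCODE and as coding in RefSeq.

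**Figure D3:**
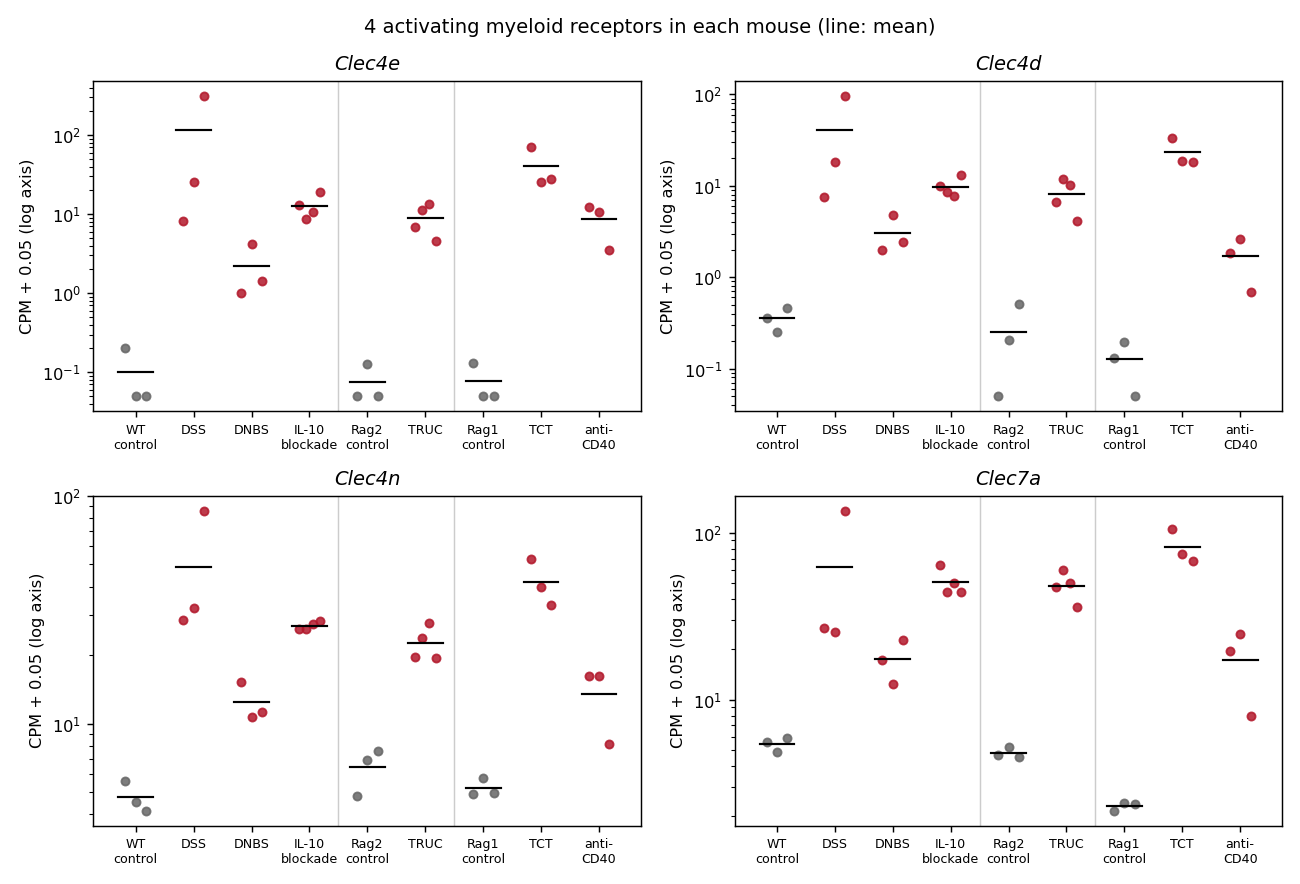
CPM plus 0.05 of Clec4e, Clec4d, Clec4n and Clec7a in each mouse on log axes, with controls in grey, colitis models in red, the mean of each group as a line, and vertical lines between sets that share a control. For these 4 genes each red point lies above every grey point of its set, and the highest DSS point is mouse 8.

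Clec5a and Clec12a, an activating and an inhibitory receptor of neutrophils and monocytes, were called in 5 models and not in DNBS. Clec5a stood at 2.44, 2.73 and 2.46 CPM in the WT controls, 9.19, 11.3 and 58.4 in DSS, 5.61, 4.73 and 6.57 in DNBS and 13.5, 8.94, 7.12 and 9.72 in IL-10 blockade. For Clec5a, the Rag2 controls had 1.06, 2.45 and 2.95 CPM, TRUC 9.66, 15.5, 8.43 and 5.94, the Rag1 controls 1.86, 1.69 and 0.947, TCT 19.999, 12.1 and 16.5 and anti-CD40 7.61, 6.69 and 2.44. All colitis mice were above their controls. The log2 fold change was 3.41 ± 0.59 in TCT, 3.36 ± 0.56 in DSS, 2.18 ± 0.54 in TRUC, 1.94 ± 0.53 in IL-10 blockade and 1.87 ± 0.59 in anti-CD40 (adjusted p = 9.71e-05, 0.000101, 0.00225, 0.00374 and 0.0261), and 1.14 ± 0.55 in DNBS (adjusted p = 0.204). Without DSS mouse 8 it was 2.00 in DSS. The call in anti-CD40 was lost without Rag1 control mouse 3 or 4 or anti-CD40 mouse 6 or 7 (1.58 to 2.24, adjusted p up to 0.0989) and against the Rag2 controls (1.34 ± 0.57, adjusted p = 0.0851). Against the WT controls the value in TCT was 2.66 ± 0.55 (adjusted p = 0.00101).

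Clec12a stood at 2.90, 2.13 and 2.21 CPM in the WT controls, 6.86, 4.85 and 18.8 in DSS, 5.73, 5.89 and 6.48 in DNBS and 14.2, 11.1, 10.6 and 16.9 in IL-10 blockade. For Clec12a, the Rag2 controls had 0.797, 0.842 and 1.81 CPM, TRUC 4.35, 5.34, 8.16 and 5.37, the Rag1 controls 0.486, 0.589 and 0.430, TCT 20.3, 11.7 and 17.4 and anti-CD40 4.79, 4.72 and 1.79. No colitis mouse was within the range of its controls, and TCT was furthest from them. The log2 fold change was 5.00 ± 0.50 in TCT, 2.86 ± 0.51 in anti-CD40, 2.45 ± 0.40 in IL-10 blockade, 2.31 ± 0.43 in TRUC and 2.06 ± 0.41 in DSS (adjusted p = 7.19e-08, 0.000502, 3.26e-05, 0.000201 and 0.000545). It was 1.32 ± 0.41 in DNBS (adjusted p = 0.0566), and 1.28 in DSS without mouse 8. The Rag1 controls were lower than the WT controls in every mouse, and against the WT controls the value in TCT was 2.77 ± 0.42 (adjusted p = 5.00e-05). Against the Rag2 controls that in anti-CD40 was 1.68 ± 0.46 (adjusted p = 0.0104).

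The DCIR group, Clec4a1, Clec4a2 and Clec4a3, lies together on chromosome 6 between chr6:122921848-122934619 and chr6:123106428-123143999. Clec4a2 is the inhibitory receptor DCIR of monocytes and dendritic cells. Clec4a2 stood at 4.34, 4.73 and 2.71 CPM in the WT controls, 15.1, 14.3 and 22.7 in DSS, 8.84, 9.85 and 9.21 in DNBS and 7.93, 8.52, 8.15 and 8.05 in IL-10 blockade. For Clec4a2, the Rag2 controls had 3.19, 3.37 and 2.49 CPM, TRUC 6.78, 5.78, 8.25 and 7.82, the Rag1 controls 2.59, 1.92 and 2.15, TCT 11.96, 7.18 and 9.36 and anti-CD40 3.95, 5.74 and 3.37. The groups did not overlap in any model. Its rise was 2.14 ± 0.24 on the log2 scale in DSS, 2.09 ± 0.25 in TCT, 1.25 ± 0.23 in TRUC, 1.24 ± 0.23 in DNBS, 1.05 ± 0.22 in IL-10 blockade and 0.97 ± 0.25 in anti-CD40 (adjusted p = 1.72e-06, 7.49e-07, 0.000168, 0.00474, 0.000487 and 0.00853). Its rises thus lay closer to each other than those of Clec4e or Clec4d. In anti-CD40 the call was lost without Rag1 control mouse 3 or anti-CD40 mouse 7 (0.72 to 1.13, adjusted p up to 0.0883) and against the Rag2 controls (0.53 ± 0.25, adjusted p = 0.118). Against the WT controls the value in TCT was 1.27 ± 0.24 (adjusted p = 0.000377). 6.83% of its 50-base windows were shared with Clec4a4, Clec4b1 or another gene.

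Clec4a3 stood at 3.28, 4.06 and 3.53 CPM in the WT controls, 16.4, 15.9 and 39.7 in DSS, 6.75, 7.29 and 7.16 in DNBS and 6.83, 7.17, 8.58 and 7.01 in IL-10 blockade. For Clec4a3, the Rag2 controls had 2.21, 1.84 and 3.47 CPM, TRUC 10.1, 9.96, 10.7 and 7.25, the Rag1 controls 1.30, 1.69 and 0.688, TCT 12.9, 9.92 and 14.2 and anti-CD40 2.91, 4.72 and 2.87. All colitis mice were above their controls. It rose by 3.30 ± 0.35 on the log2 scale in TCT, 2.72 ± 0.32 in DSS, 1.91 ± 0.31 in TRUC, 1.49 ± 0.36 in anti-CD40 and 1.03 ± 0.30 in IL-10 blockade (adjusted p = 1.35e-07, 2.82e-06, 4.35e-05, 0.00494 and 0.00586). In DNBS the value was 0.96 ± 0.31 (adjusted p = 0.0643). Against the Rag2 controls the value in anti-CD40 was 0.47 ± 0.33 (adjusted p = 0.310), and against the WT controls that in TCT was 1.76 ± 0.31 (adjusted p = 0.000248).

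Clec4a1 stood at 3.51, 3.60 and 3.85 CPM in the WT controls, 13.4, 18.5 and 38.9 in DSS, 5.91, 8.84 and 7.34 in DNBS and 6.83, 7.59, 10.7 and 8.05 in IL-10 blockade. For Clec4a1, the Rag2 controls had 2.30, 1.30 and 2.49 CPM, TRUC 8.41, 7.38, 8.52 and 6.35, the Rag1 controls 1.38, 2.28 and 1.55, TCT 20.3, 15.5 and 13.9 and anti-CD40 3.10, 3.09 and 2.08. Anti-CD40 mice overlapped with the Rag1 controls, and the mice of the other models were above their controls. It rose in TCT (3.24 ± 0.33, adjusted p = 1.03e-07), DSS (2.69 ± 0.31, 2.85e-06), TRUC (1.91 ± 0.31, 5.02e-05) and IL-10 blockade (1.18 ± 0.29, 0.00186). In DNBS the log2 fold change was 1.01 ± 0.31 (adjusted p = 0.0517) and in anti-CD40 0.65 ± 0.35 (0.186). Against the WT controls Clec4a1 in TCT was 2.18 ± 0.31 (adjusted p = 2.77e-05).

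Dendritic cell and other myeloid members were called in fewer models. Clec9a, the receptor of type 1 conventional dendritic cells for exposed actin, rose in TCT (1.57 ± 0.35, adjusted p = 0.00147), TRUC (1.39 ± 0.32, 0.00134) and IL-10 blockade (1.31 ± 0.32, 0.00169). All 3 anti-CD40 mice, at 0.376, 1.03 and 0.789 CPM, were below the Rag1 controls at 1.46, 1.25 and 1.205 CPM, with a log2 fold change of -0.81 ± 0.40 (adjusted p = 0.149), and against the Rag2 controls Clec9a was called lower (-1.20 ± 0.39, adjusted p = 0.0281). Of 5 markers of these dendritic cells, 4 were called higher in TCT, 3 in TRUC and DSS and 0 in DNBS, in IL-10 blockade 4 were higher and 1 lower, and in anti-CD40 1 was higher and 2 lower. Clec10a, a galactose-binding lectin of macrophages and dendritic cells, rose in DSS (1.94 ± 0.41, 0.000978) and TCT (2.29 ± 0.46, 0.000499), but against the WT controls the value in TCT was 0.75 ± 0.42 (adjusted p = 0.172), and 9.02% of its windows were shared with Mgl2 and other genes. Clec1b, the podoplanin receptor of platelets, had at most 23 counts in a mouse and rose in TCT (3.73 ± 0.59, 3.92e-05) and IL-10 blockade (1.79 ± 0.55, 0.00846). The call in IL-10 blockade was lost without WT control mouse 1 or 2, the value was 3.17 without WT control mouse 4, and DESeq2 did not call it. In TCT the value was 4.89 without Rag1 control mouse 3 and 2.85 ± 0.53 against the WT controls (adjusted p = 0.000375). Of 3 platelet markers tested, 1 was called higher and 1 lower in TCT and 0 in IL-10 blockade. The sum of the 5 listed was 20.5 to 45.9 CPM in TCT against 8.76 to 12.7 in the Rag1 controls, and 6.69 to 22.6 in IL-10 blockade against 18.1 to 26.1 in the WT controls, and its part in the values of Clec1b was not tested. Exons of Clec1b and Clec9a overlap on the same strand, over 3.61% of the exon bases of Clec1b and 5.59% of those of Clec9a, so that reads there may belong to either. Clec4b1 had at most 20 counts in a mouse and was called in no model. The myeloid members that were not tested had at most 9 counts (Clec4a4), 2 (Clec4b2), 2 (Clec4f, a Kupffer cell gene) and 3 (Clec12b) in any mouse.

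Of the epithelial pair, Clec2e fell in 4 models and Clec2h in none. Clec2e stood at 9.07, 10.3 and 9.02 CPM in the WT controls, 2.77, 1.30 and 1.84 in DSS, 11.5, 7.21 and 7.76 in DNBS and 3.04, 6.86, 5.23 and 20.8 in IL-10 blockade. For Clec2e, the Rag2 controls had 16.6, 17.3 and 12.9 CPM and TRUC 3.02, 7.30, 3.94 and 5.62. For Clec2e, the Rag1 controls had 20.4, 23.9 and 24.8 CPM, TCT 2.36, 2.82 and 3.15 and anti-CD40 1.69, 1.97 and 1.36. Mice of TRUC, DSS, TCT and anti-CD40 were below all of their controls, and IL-10 blockade was split, with mice 1 to 3 below the WT controls and mouse 4 above them. The log2 fold change was -3.78 ± 0.49 in anti-CD40 (adjusted p = 2.16e-05), -3.05 ± 0.46 in TCT (2.20e-05), -2.25 ± 0.46 in DSS (0.000690) and -1.65 ± 0.40 in TRUC (0.00177). In DNBS it was -0.10 ± 0.42 (0.914) and in IL-10 blockade -0.09 ± 0.40 (0.866). These 4 calls were kept without any 1 mouse. They were kept also for TCT against the WT controls (-1.77 ± 0.46, adjusted p = 0.00549) and for anti-CD40 against the Rag2 controls (-3.22 ± 0.48, 8.55e-05).

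Clec2h was the most abundant member. Clec2h stood at 176, 193 and 179.6 CPM in the WT controls, 240.4, 375 and 112 in DSS, 201, 309 and 308 in DNBS and 447, 451, 475 and 1111 in IL-10 blockade. For Clec2h, the Rag2 controls had 557, 578 and 378 CPM and TRUC 474, 514, 489.6 and 532. For Clec2h, the Rag1 controls had 391, 400.5 and 485 CPM, TCT 434, 298 and 318 and anti-CD40 585, 527 and 436. The mice of IL-10 blockade and DNBS were above the WT controls, mouse 4 of IL-10 blockade by far the most, and the 3 DSS mice spread widely. It rose in IL-10 blockade (1.76 ± 0.32, adjusted p = 9.29e-05). The log2 fold change was 0.58 ± 0.32 in DNBS, 0.41 ± 0.32 in DSS, 0.28 ± 0.32 in anti-CD40, -0.01 ± 0.30 in TRUC and -0.28 ± 0.32 in TCT (adjusted p = 0.277, 0.347, 0.577, 0.996 and 0.549). Against the WT controls, however, it was higher in TCT (0.94 ± 0.33, adjusted p = 0.0320).

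The ratio of the pair within a library does not depend on the scaling, and it was examined after these values had been seen. Clec2e counts per 100 Clec2h counts were 5.14, 5.36 and 5.02 in the WT controls, 1.15, 0.346 and 1.64 in DSS, 5.70, 2.34 and 2.52 in DNBS and 0.679, 1.52, 1.10 and 1.87 in IL-10 blockade. The same ratio was 2.99, 2.99 and 3.41 in the Rag2 controls and 0.638, 1.42, 0.805 and 1.06 in TRUC, and it was 5.22, 5.96 and 5.11 in the Rag1 controls, 0.544, 0.948 and 0.990 in TCT and 0.289, 0.374 and 0.313 in anti-CD40. Every mouse of 5 models was below its controls, IL-10 blockade with its mouse 4 included, and the DNBS mice overlapped with them. In a two-sided exact permutation test the p was 0.0571 for TRUC and IL-10 blockade and 0.1 for DSS, TCT and anti-CD40, which is the smallest that groups of these sizes can give, and 0.4 for DNBS (0.12 and 0.4 after Benjamini-Hochberg adjustment over 6 models), so that these designs cannot reach 0.05. Of 8 epithelial markers, 3 were called higher and 2 lower in TRUC, 1 and 1 in DSS, 0 and 0 in DNBS, 5 and 1 in IL-10 blockade, 1 and 2 in TCT and 2 and 1 in anti-CD40. Their sum was 9138 to 9786 CPM in the Rag1 controls, 10119 to 11549 in anti-CD40 and 9364 to 10378 in TCT. In the Rag2 controls it was 10127 to 11163 CPM and in TRUC 10710 to 11739. In DSS it was 5923 to 7839.5 CPM, below every WT control at 7879 to 9622. In IL-10 blockade it was 10861 to 19355 CPM, with mouse 4 the highest. The part of these markers in the values of Clec2e was not tested.

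**Figure D4:**
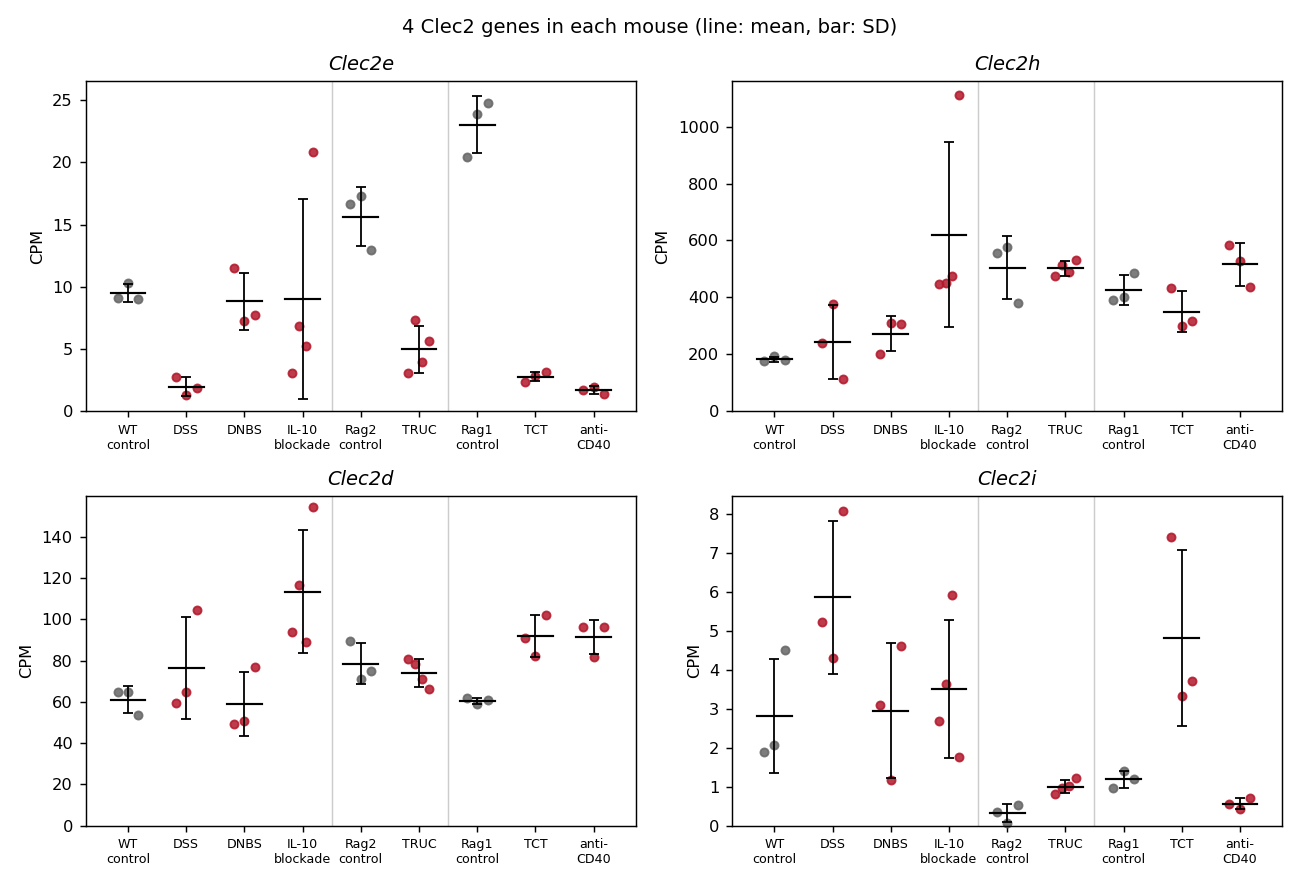
CPM of Clec2e, Clec2h, Clec2d and Clec2i in each mouse, with controls in grey, colitis models in red, the group mean as a line and the SD as a bar. Clec2e is below its controls in TRUC, DSS, TCT and anti-CD40 while Clec2h is not, and mouse 4 of IL-10 blockade is the highest red point of Clec2e, Clec2h and Clec2d.

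Among the other Clec2 genes, Clec2d, the ligand of the inhibitory receptor encoded by Klrb1b, was abundant and rose in 3 models. It rose in IL-10 blockade (0.89 ± 0.19, adjusted p = 0.000501), TCT (0.60 ± 0.20, 0.0260) and anti-CD40 (0.60 ± 0.20, 0.0363), with 3 values between -0.08 and 0.32 in the others. The call in TCT was lost without Rag1 control mouse 2, 3 or 4 or TCT mouse 5 (adjusted p up to 0.105), that in anti-CD40 without any 1 of Rag1 control mice 2, 3 and 4 and anti-CD40 mice 6, 7 and 8 (up to 0.108) and against the Rag2 controls (0.22 ± 0.20, adjusted p = 0.447). Clec2i rose in TCT (2.00 ± 0.49, 0.00313) and TRUC (1.62 ± 0.61, 0.0343), the first not against the WT controls (0.78 ± 0.45, adjusted p = 0.198). The second was lost without Rag2 control mouse 1 or 2 or TRUC mouse 3, 4 or 5 (1.15 to 2.22, adjusted p up to 0.160) and was 2.22 without Rag2 control mouse 4.

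Clec2g, found at 2, 2 and 1 counts in the WT controls, was rare everywhere. Clec2g had 8, 5 and 9 counts in DSS, 2, 0 and 0 in DNBS and 6, 5, 7 and 5 in IL-10 blockade, and in CPM the WT controls were at 0.152, 0.133 and 0.0820, DSS at 0.503, 0.342 and 0.720, DNBS at 0.119, 0 and 0 and IL-10 blockade at 0.506, 0.520, 0.601 and 0.523. For Clec2g, the Rag2 controls had 3, 1 and 2 counts (0.266, 0.0765 and 0.151 CPM) and TRUC 22, 10, 16 and 16 (1.62, 0.890, 1.47 and 1.30 CPM). For Clec2g, the Rag1 controls had 0, 0 and 0 counts, TCT 4, 1 and 3 (0.349, 0.0855 and 0.278 CPM) and anti-CD40 13, 6 and 2 (1.22, 0.514 and 0.144 CPM). Mice were above their controls in 5 models and not in DNBS. It was called higher in TRUC (2.97 ± 0.58, adjusted p = 0.000345), IL-10 blockade (2.03 ± 0.66, 0.0133) and DSS (1.97 ± 0.68, 0.0280), the last lost without WT control mouse 1, 2 or 4 or DSS mouse 8 (1.70 to 2.20, adjusted p up to 0.112) and by DESeq2. Over a floor of 3 counts for the Rag1 controls together it was higher by at least 2.95-fold in TCT and by at least 7.25-fold in anti-CD40 (adjusted p = 0.00957 and 0.000912), where the error of counting alone gives lower 95% limits of 1.89-fold and 5.39-fold for the 2 ratios. The call in TCT was lost by DESeq2 and against the WT controls (0.88 ± 0.79, adjusted p = 0.414). Against the Rag2 controls the value in anti-CD40 was 1.84 ± 0.66 (adjusted p = 0.0457). Without anti-CD40 mouse 6 the fitted value in anti-CD40 was 5.04. Clec2l and Clec2m were called in no model, and Clec2f had at most 4 counts in a mouse.

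The endothelial and stromal members were not called higher in any model. Of the 4 tested, 2 were called lower in TRUC (23.4% of all genes) and 1 in IL-10 blockade (26.1%). In TCT 1 was called lower (14% of all genes) and in anti-CD40 1 (10.7%), with none in DSS and DNBS. The share of all genes called lower in any of the models was not counted. Clec14a stood at 28.5, 26.7 and 29.9 CPM in the WT controls, 20.6, 27.6 and 16.7 in DSS, 25.5, 30.9 and 17.1 in DNBS and 25.5, 24.9, 26.9 and 25.5 in IL-10 blockade. For Clec14a, the Rag2 controls had 38.4, 32.1 and 42.2 CPM, TRUC 24.6, 19.7, 19.3 and 26.1, the Rag1 controls 37.6, 28.7 and 29.8, TCT 33.7, 19.9 and 17.0 and anti-CD40 14.8, 15.8 and 19.0. TRUC and anti-CD40 were below their controls in every mouse. It fell in anti-CD40 (-0.95 ± 0.22, adjusted p = 0.00433) and in TRUC (-0.74 ± 0.20, 0.00478), and the other 4 values were between -0.44 and -0.14 and not called. Of 5 endothelial markers, 2 were called lower in TRUC, 2 in anti-CD40 and 3 in IL-10 blockade, and in DSS 5 were higher. Their sum was 93.4 to 119.8 CPM in the Rag2 controls, 81.5 to 103 in TRUC, 111 to 140.3 in the Rag1 controls and 72.4 to 95.5 in anti-CD40, and its part in the fall of Clec14a was not tested, nor was that of the smooth muscle markers, which were lower in TRUC.

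Clec3b stood at 53.8, 59.0 and 36.7 CPM in the WT controls, 32.2, 31.0 and 19.6 in DSS, 41.0, 5.04 and 16.1 in DNBS and 13.0, 25.5, 14.3 and 14.3 in IL-10 blockade. For Clec3b, the Rag2 controls had 33.8, 29.8 and 47.7 CPM, TRUC 31.6, 18.5, 24.9 and 26.6, the Rag1 controls 27.6, 42.3 and 35.1, TCT 24.98, 20.3 and 29.4 and anti-CD40 14.2, 18.3 and 23.5. Every mouse of IL-10 blockade and DSS was below the WT controls and every anti-CD40 mouse below the Rag1 controls, while the DNBS mice spread widely. The fall was called in IL-10 blockade (-1.57 ± 0.39, adjusted p = 0.00185). The other 5 log2 fold changes were also negative, from -1.25 in DNBS to -0.49 in TCT, and not called. Of 5 fibroblast markers, 3 were called lower in IL-10 blockade, where their sum was 605 to 958 CPM against 1049.7 to 1115 in the WT controls, and the part of these and of the smooth muscle markers, which were also lower there, in the fall of Clec3b was not tested.

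Clec1a, an endothelial receptor, stood at 2.59, 1.33 and 2.21 CPM in the WT controls, 2.64, 4.03 and 2.40 in DSS, 2.45, 4.11 and 2.56 in DNBS and 1.10, 1.46, 1.46 and 0.941 in IL-10 blockade. For Clec1a, the Rag2 controls had 2.04, 2.07 and 2.64 CPM, TRUC 1.47, 1.69, 0.825 and 1.22, the Rag1 controls 1.22, 0.884 and 2.32, TCT 1.92, 1.54 and 2.13 and anti-CD40 0.845, 1.11 and 1.22. TRUC was below the Rag2 controls (-0.78 ± 0.32, adjusted p = 0.0467). That call was lost without Rag2 control mouse 1, 2 or 4 or TRUC mouse 2, 4 or 5 (-0.92 to -0.62, adjusted p up to 0.160), without a filter on low counts and by DESeq2. In anti-CD40 the log2 fold change was -0.45 ± 0.36 (adjusted p = 0.394), but against the Rag2 controls Clec1a was called lower (-1.07 ± 0.35, adjusted p = 0.0278).

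Clec11a, a growth factor of stromal cells, stood at 4.80, 4.93 and 5.09 CPM in the WT controls, 3.78, 3.08 and 4.00 in DSS, 5.85, 8.69 and 3.16 in DNBS and 3.12, 3.64, 4.20 and 2.93 in IL-10 blockade. For Clec11a, the Rag2 controls had 4.34, 4.97 and 5.29 CPM, TRUC 4.65, 2.49, 4.49 and 4.89, the Rag1 controls 4.62, 7.07 and 4.82, TCT 2.97, 2.48 and 1.85 and anti-CD40 3.01, 4.37 and 5.10. TCT mice were below both the Rag1 and the WT controls, and the mice of DSS and IL-10 blockade were below the WT controls by less. It fell in TCT (-1.17 ± 0.30, adjusted p = 0.00476) and, against the WT controls, was -1.02 ± 0.30 (adjusted p = 0.0140). Clec4g, of liver and lymph node endothelium, had at most 4 counts in a mouse.

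Clec16a stood at 32.4, 32.6 and 36.5 CPM in the WT controls, 36.1, 35.8 and 37.5 in DSS, 31.9, 38.4 and 39.9 in DNBS and 38.9, 35.9, 40.1 and 41.4 in IL-10 blockade. For Clec16a, the Rag2 controls had 47.5, 55.4 and 47.9 CPM, TRUC 53.6, 62.1, 53.1 and 56.3, the Rag1 controls 49.8, 47.2 and 45.5, TCT 39.1, 36.0 and 40.9 and anti-CD40 65.7, 77.5 and 63.4. The libraries labelled TCT were at the level of the Balb/C WT set and below the Rag1 controls, and anti-CD40 was above them. It was called higher in anti-CD40 (0.54 ± 0.10, adjusted p = 0.000797) and lower in TCT (-0.30 ± 0.10, 0.0293). The second call was lost without Rag1 control mouse 2 or 3 or TCT mouse 3 (-0.34 to -0.24, adjusted p up to 0.132), by DESeq2, by edgeR on the 2 groups alone and without a filter, and its sign was the opposite against the WT controls (0.19 ± 0.10, adjusted p = 0.156). Clec18a had at most 5 counts in a mouse and Clec3a, a cartilage gene, had none.

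The size of the change differed between the 6 models for 20 of the 25 members by an F test of equal contrasts, where 60.5% of all genes tested differed. The smallest adjusted p among members were 1.11e-06 for Clec4a1, 4.53e-06 for Clec4a3 and 2.10e-05 for Clec4n, which were highest in DSS and TCT and lowest in DNBS or anti-CD40. Clec2e differed as well (6.97e-05). Clec14a, Clec3b, Clec2l, Clec2m and Clec4b1 did not pass, with adjusted p from 0.122 to 0.563. The models share control mice, and DSS, DNBS and IL-10 blockade are each set against the same WT controls.

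Of the partners through which these receptors signal, most rose in TRUC, DSS, IL-10 blockade and TCT and few in DNBS and anti-CD40. Of 13 partner genes, 8 were called higher and 2 lower in TRUC (22.4% and 23.4% of all genes), 10 and 1 in DSS (17.7% and 16.3%) and 2 and 1 in DNBS (3.95% and 2.21%). In IL-10 blockade 9 were higher and 2 lower (27.2% and 26.1%), in TCT 8 and 1 (16.1% and 14%) and in anti-CD40 3 and 0 (10.9% and 10.7%). The largest rises in TRUC were those of Fcer1g (2.11 ± 0.39, adjusted p = 0.000161) and Tyrobp (1.71 ± 0.31, 0.000131), and the falls were those of Hcst, the adaptor Dap10 (-1.74 ± 0.30, 9.62e-05), and the kinase Prkcd (-0.38 ± 0.11, 0.00601). Fcer1g was at 2.35 to 2.65 CPM in the Rag1 controls and 10.0 to 13.6 in the WT controls. In TCT it was at 38.9 to 61.2 CPM, which is 4.30 ± 0.42 on the log2 scale against the Rag1 controls, whereas it was 2.04 against the WT controls. Syk itself rose in 5 models, from 0.94 ± 0.25 in TCT to 1.55 ± 0.26 in anti-CD40, and the value in DNBS was 0.61 ± 0.25 (adjusted p = 0.134).

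Of 5 NKR-P1 receptor genes, the receptors for Clec2 proteins, 4 were tested, of which 3 were called higher in IL-10 blockade, 2 in DSS, 2 in TCT, 1 in TRUC and 0 in DNBS and anti-CD40, and 1 was called lower in TCT. Of 6 markers of T and NK cells, 5 were called higher in each of TRUC, DSS, IL-10 blockade and TCT and 0 in DNBS and anti-CD40, and their part was not tested. In TRUC the rise, 1 of 4 where 22.4% of all genes were called higher, was that of Klrb1b (2.19 ± 0.71, adjusted p = 0.0141), the receptor for Clec2d. Of 14 C-type lectin receptors of other names 13 were tested, of which 3 were higher and 1 lower in TRUC, 6 and 1 in DSS, 0 and 0 in DNBS, 2 and 9 in IL-10 blockade, 5 and 3 in TCT and 0 and 3 in anti-CD40. The 3 of 13 higher in TRUC were near the 22.4% of all genes called higher there. For both lists, the shares of all genes called higher and lower were 22.4% and 23.4% in TRUC and 17.7% and 16.3% in DSS. They were 3.95% and 2.21% in DNBS and 27.2% and 26.1% in IL-10 blockade. In TCT they were 16.1% and 14%, and in anti-CD40 10.9% and 10.7%. The largest rises in TRUC were those of Olr1, a receptor for oxidized lipoprotein, and Cd302 (1.21 ± 0.20, 6.33e-05), and the fall was that of Cd207, langerin (-1.96 ± 0.65, 0.0175). Olr1 had 1 count in the Rag2 controls together and 115 in TRUC, a ratio of 90.1 (95% counting interval 15.9 to 3589) (adjusted p = 0.00280). In IL-10 blockade, in a group picked out after its values were seen, Cd209a, Cd209b, Cd209d, Cd209f and Cd209g were among the 9 that fell, with Cd209b at 7 to 15 counts in the WT controls and 0 to 1 in IL-10 blockade (adjusted p = 0.000537), in the mice in which 11 of 13 myeloid Clec members rose.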

How the data were processed

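Colon RNA of 29 mice in 9 groups was analysed from a table of raw counts per gene. The authors deposited these counts. The submitters' processing notes name Trimmomatic, HISAT2 and HTSeq and the build GRCm38. Their roles, versions and settings, and whether counting used strand, were not given in the sources used here for the mouse samples. The table held 54532 genes and 92 spike-in rows, which were all 0. Total counts ran from 10725564 to 14977094 (median 12287039), and a floor of 3 counts was used for genes absent from a group.

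The 18616 genes whose counts averaged 3 or more over the mice were kept. A quasi-likelihood model with 9 groups was fitted in edgeR 4.0.16 (R 4.3.3) with TMM scaling and the default prior count. Each model was contrasted with its control, and p-values were adjusted over all genes by Benjamini-Hochberg with a threshold of 0.05. Equality of the 6 contrasts was tested by an F test. CPM use the TMM-scaled library sizes. The test was tried on simulated counts with known changes.

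Members were taken by symbol (Clec and a digit, protein-coding in GENCODE or RefSeq), roles by background knowledge. Members, lists and markers were chosen with earlier results of these data known. Values per mouse are given for members called higher in at least 4 of the 6 models or lower in any, and for the epithelial pair, and for other genes of the pathway the 2 largest rises and falls in TRUC among those called. Alternatives were RLE and upper quartile scaling, no filter, DESeq2 1.42.0, edgeR on 2 groups, a threshold of 0.01, a replicate block, other controls and leaving out each mouse. Deviations from the group mean were taken in log CPM with a prior count of 2. Of the same-numbered mice, no pair had a correlation of deviations over 0.1, so that the numbers were not taken to pair mice. Sequences shared between genes were counted in windows of 50 bases.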

Additional observations from a re-analysis of the deposited data

Results flagged for a closer look

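In 3 of 50 sets of a member and a group of 4 mice, 1 mouse stood far from the others, and chance flags about 1 in 20. Clec2h was at 1111 CPM in mouse 4 of IL-10 blockade, and the other 3 mice were between 447 and 475 CPM. Clec2e and Clec2d were also highest in that mouse. Clec3b was at 25.5 CPM in mouse 2 of IL-10 blockade, above the other 3, which lay between 13.0 and 14.3 CPM. Clec11a was at 2.49 CPM in mouse 3 of TRUC, below the other 3, which lay between 4.49 and 4.89 CPM.

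The change from control differed between the 6 models for 20 of the 25 members, where 60.5% of all genes tested differed (edgeR F test, Benjamini-Hochberg over all genes). Among the myeloid members the adjusted p was 1.11e-06 for Clec4a1, 4.53e-06 for Clec4a3, 2.10e-05 for Clec4n, 3.04e-05 for Clec4d, 7.06e-05 for Clec9a, 9.93e-05 for Clec4a2, 0.000110 for Clec1b, 0.000114 for Clec4e, 0.000133 for Clec12a, 0.000215 for Clec7a, 0.00277 for Clec5a and 0.00548 for Clec10a. Of the Clec2 genes it was 6.97e-05 for Clec2e, 0.000633 for Clec2i, 0.000684 for Clec2h, 0.00147 for Clec2d and 0.00265 for Clec2g. It was 3.05e-05 for Clec16a, 0.00202 for Clec1a and 0.0232 for Clec11a. Clec2e fell by 3.78 in anti-CD40 and was -0.09 in IL-10 blockade on the log2 scale. In IL-10 blockade 3 mice were below every WT control for Clec2e and 1 was above them. Clec16a was higher in anti-CD40 and lower in TCT, the latter with the limits given above.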

How the results depend on the processing

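Of 77 calls of a member in a model, 59 held in every alternative and 64 whenever 1 mouse was left out, and 1 turned its sign: Clec16a in TCT was 0.19 against the WT controls. Members lower in DSS numbered 2 without a filter and 2 by DESeq2. Members higher in DNBS numbered 1 at an adjusted p under 0.01, 10 by DESeq2 and 9 by edgeR on the 2 groups alone. Shares of all genes were counted only for the main fit at its threshold. Counts under the alternatives, other controls included, have no such share beside them. Members lower in IL-10 blockade numbered 3 with upper quartile scaling and 2 without a filter. That scaling moved the median of all genes by -0.166 in IL-10 blockade, -0.107 in TRUC and -0.109 for TCT against the WT controls, and the member median in IL-10 blockade to 0.86. Against the Rag2 controls 7 members were higher and 4 lower in anti-CD40 (member median 0.43), and against the WT controls the member median in TCT was 0.88. Rag1 and Rag2 controls differed in 2 members by DESeq2 and 1 by edgeR alone, and Rag2 and WT controls in 6 by either. The replicate block gave 6 for the latter, 12 higher and 2 lower in TRUC, and 13 higher and 1 lower in IL-10 blockade. It ended the calls of Clec1a and Clec2i in TRUC and Clec1b in IL-10 blockade, and the causes of these changes were not tested.

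With 1 mouse left out, members higher numbered 11 to 12 in TRUC, 10 to 12 in DSS, 1 to 5 in DNBS, 13 to 15 in IL-10 blockade, 14 to 15 in TCT and 7 to 10 in anti-CD40. Members lower numbered 2 to 3, 1 to 1, 0 to 1, 1 to 2, 2 to 4 and 2 to 2 in the same order. Differences between models numbered 19 to 21, between Rag2 and WT controls 3 to 3 and between Rag1 and Rag2 controls 0 to 0. Members with few counts, such as Clec2g, Clec1b and Clec4e in controls, are limited by depth.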
